A study of Danio rerio with 9 samples.

Results

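Neural crest of 2 axial levels was compared by bulk RNA-seq: cardiac crest at 17 h post-fertilisation against trunk crest at 24 h, in zebrafish (Danio rerio). The comparison took 6 of the 9 libraries of the series, 3 per group, by the sample labels; the other 3 held mCherry-negative cells of the cardiac level and enter here only as a description. Cardiac crest cells were mCherry-positive cells at the 16-somite stage (17 h), from a line with the transgenes -4.9sox10:GAL4-UAS-cre, together with UAS:NfsB-mCherry, and also myl7:nucGFP. They came from tissue running from the midbrain-hindbrain boundary back to somite 6. Trunk crest cells were GFP-positive cells of the line Tg(-4.9sox10:eGFP) at 24 h, from tissue of somites 7 to 16. In both lines a sox10 regulatory fragment drives the reporter used for the sort, so sox10 only checks the sort, and cells of other types in which that fragment is active would be sorted too. The cardiac line also carries Cre, the NfsB nitroreductase fused to mCherry and a heart-muscle nuclear GFP, and no treatment is given in the labels. Age, line, reporter and axial level go together in this design and cannot be told apart. The labels do not say how many embryos were pooled or whether replicates came from separate pools, so the p-values reflect variation among libraries that may in part be technical.

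The neural crest leaves the dorsal edge of the neural tube and migrates through the embryo. At the level of the hindbrain, crest cells fill the pharyngeal arches, where they form skeletal and connective tissue, and in zebrafish the cardiac crest also gives heart muscle cells and contributes to the outflow tract. Trunk crest mainly gives pigment cells, sensory and sympathetic neurons and glia. Zebrafish pigment cells comprise black melanophores, yellow xanthophores, which use pteridines and carotenoids, and reflecting iridophores, which stack purine crystals. Hox genes mark position along the body axis, with higher paralogue numbers used further back.

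The authors' table listed 20847 genes as size-factor-scaled reads, each a whole number of reads divided by the library's size factor. Reads in listed genes came to 44651306, 34041736 and 40074467 in cardiac crest and 29842884, 27664247 and 25128422 in trunk crest. By limma on log2(scaled reads + 1), 4829 genes (23.2%) passed an adjusted p of 0.05, of which 2233 (10.7%) were higher and 2596 (12.5%) lower in cardiac crest. The libraries of the groups did not overlap in 8628 genes (41.4%), 4486 of them (21.5%) higher in cardiac crest and 4142 (19.9%) lower. Over all genes the median log2 fold change was 0.14. The shares called over all genes, 10.7% higher and 12.5% lower, are the background for every list count below. Fold changes below are cardiac crest over trunk crest on that log2 scale with limma's standard error (n = 3 libraries each), values are scaled reads in replicates 1, 2 and 3, and a gene is called higher, lower, risen or fallen only where limma's Benjamini-Hochberg adjusted p is below 0.05. Genes were named by a rule given in the methods, which for most list members required groups that do not overlap, so that separation of those genes is part of their choice. Further members (twist1a, mitfa and the like) were chosen for their known roles after their values were seen. In bulk RNA, fewer cells of a type and less RNA per cell cannot be told apart.

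Cardiac crest replicate 3 stood apart within its group. Among 11629 genes with a cardiac crest mean of 100 scaled reads or more, 161 had over 75% of the group's scaled reads in replicate 3, against 7 in replicate 1 and 16 in replicate 2. They included 11 of the 16 muscle and somite genes at that level, and the muscle list is given below with and without it. In trunk crest the like counts were 46, 6 and 29 of 11237 genes in replicates 1, 2 and 3. Pearson correlations of log2 values across 18779 genes were 0.893 to 0.935 within cardiac crest, 0.898 to 0.922 within trunk crest and 0.766 to 0.802 between the groups, where genes are not independent replicates.

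**Figure D1:**
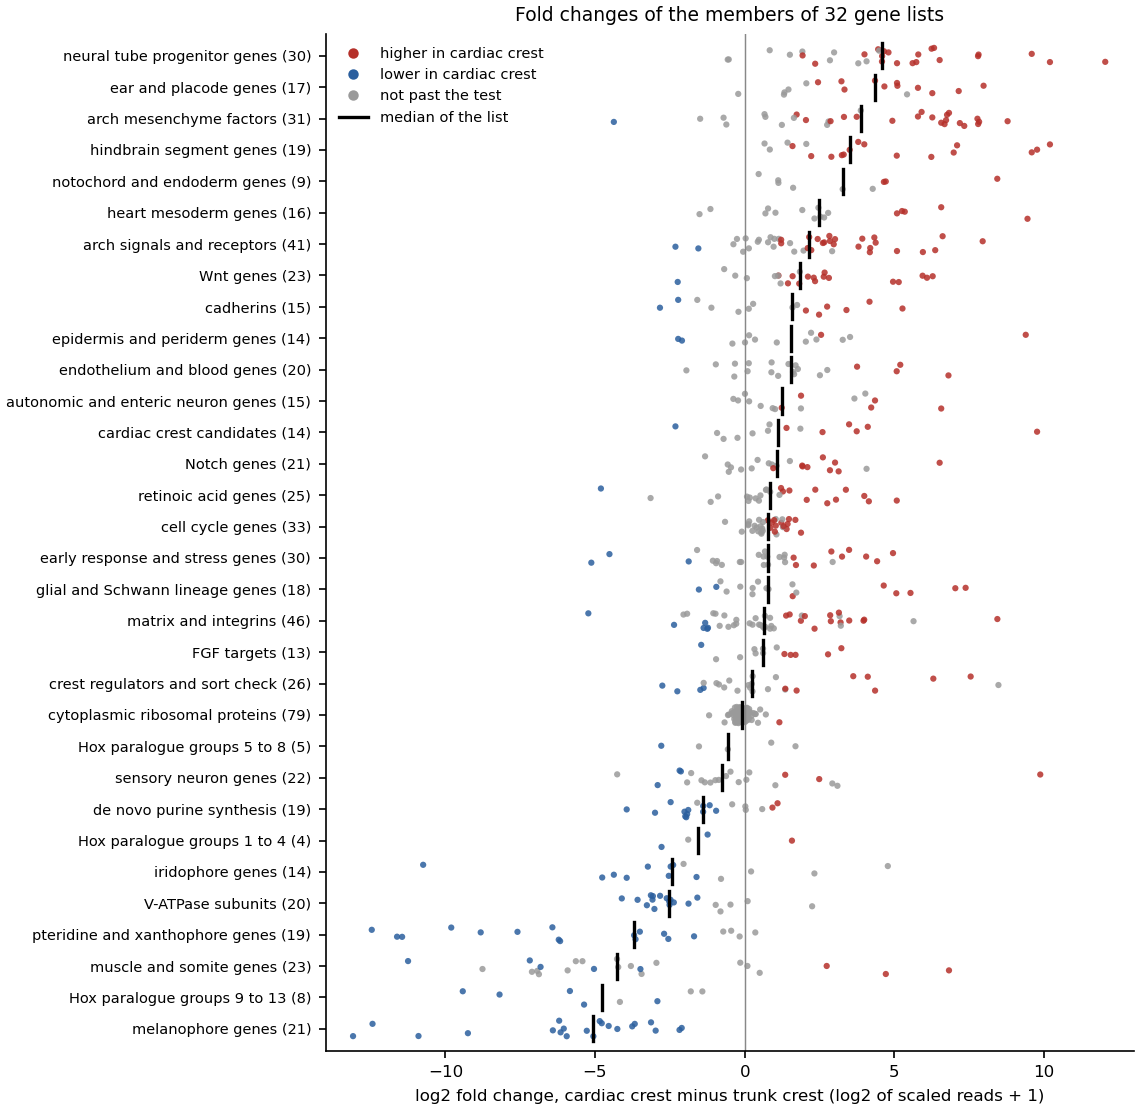
Log2 fold change, cardiac crest minus trunk crest (x axis, log2 of scaled reads + 1), of every listed member of 32 gene lists (y axis, ordered by median, members in the table in brackets). Points are genes, red higher and blue lower in cardiac crest, grey not past the test, and black bars are list medians, which run from 4.59 for neural tube progenitor genes to -5.06 for melanophore genes.

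The crest regulator tfap2a was at like levels in both groups, while cardiac crest held less sox10 and snai1a and more zic2b, zic5 and twist1b. Of 26 crest regulators in the table (30 on the list), 7 were higher, 4 lower and 15 did not pass, where 10.7% and 12.5% of all genes were higher and lower. The median log2 fold change of the list was 0.25, against 0.14 over all genes. The number higher was 4 when cardiac crest replicate 1 or 2 was left out. Transcripts of sox10, the transcription factor gene of migrating crest whose regulatory fragment drives both reporters, stood at 11344, 11669 and 7101 scaled reads in cardiac crest, against 25756, 25135 and 25223 in trunk crest (log2 fold change -1.37 ± 0.23, adjusted p = 0.00312). Every trunk crest library lay above every cardiac crest library. The crest factor tfap2a, by contrast, had 13101, 10952 and 12611 in cardiac crest, against 15188, 15258 and 12879 in trunk crest (log2 fold change -0.24 ± 0.18, adjusted p = 0.375, 95% interval -0.65 to 0.17), and the groups overlapped. The homeobox gene msx1b (-0.52 ± 0.2), msx3 (0.24 ± 0.28), the repressor gene zeb2a (0.18 ± 0.21) and id2a (0.12 ± 0.3) had 95% intervals within -1 to 1 and did not pass either, though the msx1b libraries did not overlap, at 25214, 18696 and 22876 in cardiac crest, against 27017, 37110.5 and 31395 in trunk crest. The ETS factor gene ets1, used in cranial and cardiac crest, had 8196, 3394 and 4831 in cardiac crest, against 3842, 2568 and 2701 in trunk crest and did not pass (log2 fold change 0.78 ± 0.33, adjusted p = 0.124).

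Factors of the crest's first steps moved in both directions. The Snail-type repressor gene snai1a fell to 655, 289 and 778 in cardiac crest, against 3514, 3793 and 3399.8 in trunk crest (log2 fold change -2.75 ± 0.36, adjusted p = 0.001), with no overlap. Its duplicate snai1b was higher by the test, at 168, 113 and 126 in cardiac crest, against 57.98, 8.0040 and 1.44 in trunk crest (log2 fold change 3.63 ± 1.04, adjusted p = 0.0356), though its adjusted p was between 0.0627 and 0.112 without cardiac crest replicate 1, cardiac crest replicate 2, cardiac crest replicate 3, trunk crest replicate 2 or trunk crest replicate 3, and 0.103 by edgeR. The zinc finger genes zic5 and zic2b mark dorsal neural tube and early crest. zic5 had 427, 1019 and 875 in cardiac crest, against 1.18, 4.0020 and 4.32 in trunk crest (log2 fold change 7.55 ± 0.61, adjusted p = 9.62e-05). zic2b had 6105, 6827 and 4627 in cardiac crest, against 555, 283 and 141 in trunk crest (log2 fold change 4.36 ± 0.45, adjusted p = 0.000312). Both were higher in cardiac crest, and no trunk crest library came near a cardiac crest one. The mesenchyme factor twist1b had 1382, 905 and 673 in cardiac crest, against 24.8, 65.4 and 0 in trunk crest (log2 fold change 6.3 ± 1.32, adjusted p = 0.00969). Its duplicate twist1a had 30642, 18737 and 9408 in cardiac crest, against 411, 288 and 0 in trunk crest, trunk crest replicate 3 having no read, and did not pass (log2 fold change 8.48 ± 2.47, adjusted p = 0.0638, edgeR adjusted p = 0.0355). The cartilage factor gene sox9a was higher at 221, 273 and 153 in cardiac crest, against 34.3, 20.01 and 1.44 in trunk crest (log2 fold change 4.11 ± 0.95, adjusted p = 0.0148), with an adjusted p between 0.0549 and 0.0699 without cardiac crest replicate 1 or cardiac crest replicate 2. foxd3 and crestin, both crest markers, were not analysed here.

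**Figure D2:**
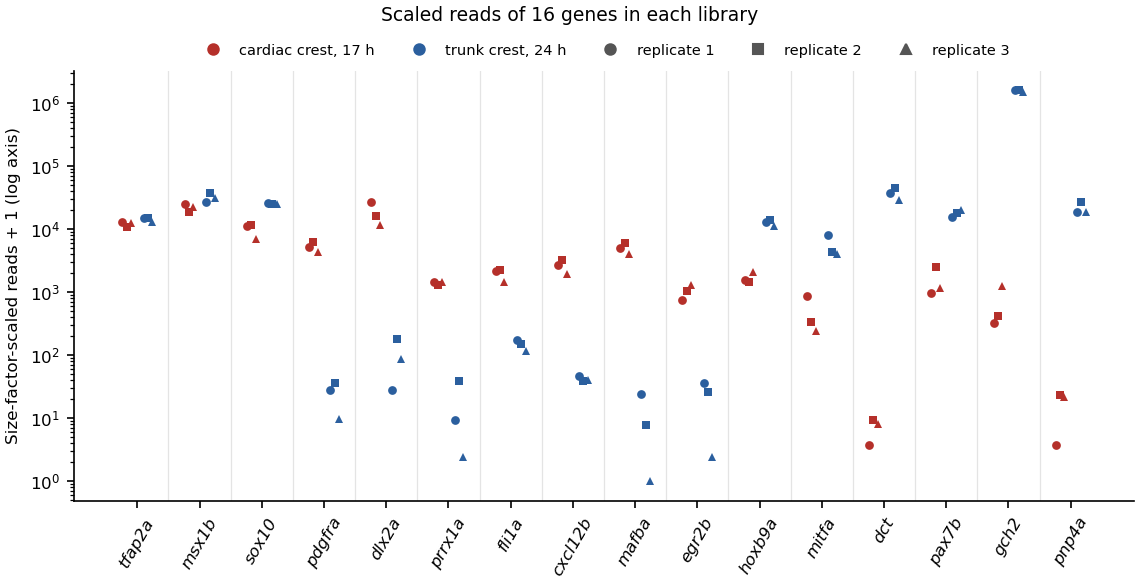
Scaled reads + 1 (log axis) of 16 genes in each of the 3 cardiac crest libraries (red, left in each column) and the 3 trunk crest libraries (blue, right), with a marker shape per replicate. tfap2a overlaps between the groups, msx1b lies slightly below trunk crest without passing the test, pdgfra to egr2b lie higher in cardiac crest, and sox10 and hoxb9a to pnp4a lie lower in it.

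Transcription factors of pharyngeal arch mesenchyme were mostly higher in cardiac crest. Of 31 in the table (39 listed), 20 were higher, 1 was lower and 10 did not pass, with a median log2 fold change of 3.88 against 0.14 over all genes. In mCherry-negative cells of the cardiac level and age, 16 of the 31 had a mean CPM above that of cardiac crest. So had 51.8% of all genes in the table, a comparison with no test. The homeobox gene dlx2a (chromosome 9, 3425857 to 3429216, GRCz10), which patterns arch crest, had 26952, 16419 and 11850.1 in cardiac crest, against 27.2, 181 and 84.995 in trunk crest (log2 fold change 7.83 ± 0.61, adjusted p = 7.96e-05). Its chromosomal neighbour dlx1a had 223, 134 and 139 in cardiac crest, against 0, 0 and 0 in trunk crest, so that no read was seen in trunk crest, and the level was at least 127-fold higher in cardiac crest, taking a floor of 3 reads for the trunk group (log2 fold change 7.34 ± 0.64, adjusted p = 0.000142). The paired-type homeobox gene prrx1a, expressed in skeletogenic mesenchyme, had 1433, 1302 and 1446 in cardiac crest, against 8.28, 37.4 and 1.44 in trunk crest (log2 fold change 7.19 ± 0.87, adjusted p = 0.000653). Each of the 3 had its highest trunk crest library far below its lowest cardiac crest library.

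The list held 6 forkhead genes in the table, grouped here after their values were seen, of which 5 were higher and foxf1 did not pass (log2 fold change 3.88 ± 1.29, adjusted p = 0.0604). foxf2a had 958, 303 and 293 in cardiac crest, against 0, 0 and 0 in trunk crest, at least 402-fold higher against the same floor (log2 fold change 8.78 ± 0.69, adjusted p = 7.85e-05). foxd1 had 1057, 554 and 826 in cardiac crest, against 44.96, 0 and 0 in trunk crest (log2 fold change 7.78 ± 1.34, adjusted p = 0.00396). Forkhead factors of these families act in facial cartilage in zebrafish. For this pair of genes trunk crest libraries were at 0 but for 1 library of foxd1. nkx3.2, the jaw joint factor gene, had 905, 319 and 581 in cardiac crest, against 14.2, 0 and 0 in trunk crest (log2 fold change 7.8 ± 1.06, adjusted p = 0.00123). The homeobox gene meox1, expressed in somites and mesenchyme, had 3722, 2359 and 3982 in cardiac crest, against 159.7, 60.03 and 1.44 in trunk crest (log2 fold change 6.83 ± 1.32, adjusted p = 0.00782). hand2, needed in the lower arches and the heart, had 20.3, 229 and 378 in cardiac crest, against 1.18, 0 and 0 in trunk crest (log2 fold change 6.57 ± 1.09, adjusted p = 0.00335). Levels of hand2 varied widely among the cardiac crest libraries, with replicate 1 lowest, and trunk crest held 1 read in all.

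A nuclear receptor gene, nr2f6b, had the highest level among the factors that did not pass, at 3543, 4901 and 2353 in cardiac crest, against 2753, 1736 and 2158 in trunk crest (log2 fold change 0.66 ± 0.31, adjusted p = 0.152). The only member that fell was alx4a, a homeobox gene known from iridophores in zebrafish and from the facial midline in mouse. It had 155, 275 and 249 in cardiac crest, against 4991, 3188 and 6017 in trunk crest (log2 fold change -4.37 ± 0.33, adjusted p = 6.63e-05), and the lowest trunk crest library lay far above the highest cardiac crest library.

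Signals and receptors of the arches rose with these factors in part. Of 41 in the table (44 listed), 23 were higher, 2 lower and 16 not past the test, with a median of 2.15. Mean CPM was above that of cardiac crest in mCherry-negative cells for 22 of the 41, and for 51.8% of all genes. The number lower was 1 without trunk crest replicate 3. Among the ligands, bmp5 had 1305, 1520.3 and 1348 in cardiac crest, against 5.92, 49.4 and 7.2 in trunk crest (log2 fold change 6.61 ± 0.72, adjusted p = 0.000414). bmp4, which acts on arch and heart tissue, had 425, 507 and 326 in cardiac crest, against 28.4, 5.34 and 8.64 in trunk crest (log2 fold change 5.09 ± 0.64, adjusted p = 0.000839). The chemokine genes cxcl12a and cxcl12b encode guides of migrating cells. cxcl12a had 834, 776 and 643 in cardiac crest, against 3.55, 4.0020 and 31.7 in trunk crest (log2 fold change 6.37 ± 0.76, adjusted p = 0.000635). cxcl12b had 2699, 3218 and 1976 in cardiac crest, against 46.1, 37.4 and 38.9 in trunk crest (log2 fold change 5.95 ± 0.33, adjusted p = 1.84e-05). In all 4 genes the highest trunk crest library was far below the lowest cardiac crest library.

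Receptors were led by pdgfra (chromosome 20, 22535507 to 22576582, GRCz10), the PDGF receptor gene that guides cranial crest migration, at 5317, 6356 and 4359.9 scaled reads in cardiac crest, against 27.2, 34.7 and 8.64 in trunk crest (log2 fold change 7.95 ± 0.5, adjusted p = 2.92e-05). The atypical chemokine receptor gene ackr3b, which clears Cxcl12, had 2448, 2677 and 4123 in cardiac crest, against 401, 89.4 and 82.1 in trunk crest (log2 fold change 4.38 ± 0.57, adjusted p = 0.00101). The signalling Cxcl12 receptor gene cxcr4a went the other way, at 328, 350.1 and 76.3 in cardiac crest, against 976, 788 and 1420.4 in trunk crest (log2 fold change -2.31 ± 0.57, adjusted p = 0.02), though its adjusted p was 0.0612 without trunk crest replicate 3. The endothelin receptor gene ednrab, central to arch crest, was abundant in both groups, at 75384, 37352 and 25214 in cardiac crest, against 33806, 13259 and 21247 in trunk crest, and did not pass (log2 fold change 0.97 ± 0.44, adjusted p = 0.145). Its duplicate ednraa did (4.18 ± 0.62, adjusted p = 0.00188), as did the FGF receptor genes fgfr2 (4.19 ± 0.36, 0.000132) and fgfr4 (2.83 ± 0.29, 0.000304) and the Hedgehog receptor gene ptch1 (2.97 ± 0.47, 0.00267). The semaphorin duplicates split, with sema3fb at 595, 708 and 887 in cardiac crest, against 20.1, 42.7 and 114 in trunk crest (log2 fold change 3.93 ± 0.6, adjusted p = 0.00215). sema3fa had 1488, 1243 and 677 in cardiac crest, against 2687, 4037 and 2894 in trunk crest (log2 fold change -1.55 ± 0.33, adjusted p = 0.01), lower in every cardiac crest library.

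A short list of genes known from cardiac crest was more mixed. Of 14 in the table (15 listed), 6 were higher, 1 was lower and 7 did not pass, with a median of 1.11. Shares over all genes were 10.7% higher and 12.5% lower. mafba, a bZIP factor of the caudal hindbrain and its crest (chromosome 23, 3462556 to 3465717, GRCz10), had 5117, 6047 and 4067 in cardiac crest, against 23.7, 6.67 and 0 in trunk crest (log2 fold change 9.77 ± 0.98, adjusted p = 0.000282). fli1a, an ETS factor of endothelium and arch crest, had 2193, 2274 and 1431 in cardiac crest, against 172, 149 and 114 in trunk crest (log2 fold change 3.74 ± 0.32, adjusted p = 0.000115). egr1, an early response factor, had 3524, 3729.9 and 2915 in cardiac crest, against 590.4, 225 and 202 in trunk crest (log2 fold change 3.49 ± 0.4, adjusted p = 0.00053). prdm1a, a repressor needed in crest specification in zebrafish, had 11556, 8541 and 2261 in cardiac crest, against 747, 903 and 1479 in trunk crest (log2 fold change 2.6 ± 0.56, adjusted p = 0.011), with an adjusted p of 0.0603 without cardiac crest replicate 2. The lower gene was cxcr4a, given above, whose adjusted p was 0.0612 without trunk crest replicate 3, and tfap2a and ets1 were among those that did not pass.

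Most hindbrain segment genes were higher in cardiac crest. Of 19 in the table (20 listed), 15 were higher, none was lower and 4 did not pass, with a median of 3.51. egr2b, the Krox20 factor of rhombomeres, had 740.2, 1057 and 1281 in cardiac crest, against 35.5, 25.3 and 1.44 in trunk crest (log2 fold change 6.24 ± 0.93, adjusted p = 0.00195). The Eph receptor gene epha4a, which keeps rhombomere cells apart, had 926, 2207 and 1601 in cardiac crest, against 2.37, 37.4 and 11.5 in trunk crest (log2 fold change 6.98 ± 0.82, adjusted p = 0.000575). The Iroquois genes irx1b (757, 1133 and 1891) and irx7 (1268, 866 and 416) had 0 reads in every trunk crest library. Against the floor of 3 reads they were at least 960.03-fold and 651-fold higher in cardiac crest. fgf3, a ligand made in the hindbrain, had 60.9, 447 and 91.4 in cardiac crest, against 0, 0 and 0 in trunk crest (log2 fold change 7.1 ± 0.86, adjusted p = 0.000676), with replicate 2 highest in cardiac crest. meis1b, a Hox cofactor gene, had 3086, 3127 and 2112 in cardiac crest, against 2039.9, 1479 and 1699.9 in trunk crest and did not pass (log2 fold change 0.66 ± 0.24, adjusted p = 0.0831). Several of these genes are expressed in hindbrain neural cells as well as in crest, and the neural tube list, given below, moved with them. That list also holds irx1b and irx7, so the lists are not independent. In mCherry-negative cells of the same level and age, 15 of the 19 had a mean CPM above that of cardiac crest, as had 51.8% of all genes in the table. For egr2b the values were 23.7, 40.3 and 44.1 CPM in cardiac crest and 85.4, 128 and 33.6 CPM in mCherry-negative cells, and for irx1b 24.2, 43.2 and 65.1 CPM in cardiac crest and 77.5, 89.9 and 43.8 CPM in mCherry-negative cells.

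Most Hox genes that passed the test, 8 of 9, were lower in cardiac crest. Under the symbols searched, the table held 17 of the 49 Hox genes on the lists, so the clusters are seen in part. Of 8 genes of paralogue groups 9 to 13, none was higher, 5 were lower and 3 did not pass, with a median of -4.77. hoxb9a (chromosome 3, 23546803 to 23551888, GRCz10) had 1579, 1441 and 2127 in cardiac crest, against 13017, 13995 and 11453 in trunk crest (log2 fold change -2.92 ± 0.22, adjusted p = 6.24e-05). hoxb10a had 38.5, 42.3 and 143 in cardiac crest, against 3015, 2975 and 1923 in trunk crest (log2 fold change -5.37 ± 0.51, adjusted p = 0.000212). Every trunk crest library of both genes exceeded every cardiac crest library. hoxd9a had 0, 0 and 179.98 in cardiac crest, against 3390.02, 5030.5 and 3409.9 in trunk crest (log2 fold change -9.42 ± 1.82, adjusted p = 0.00887), and its adjusted p was 0.0879 by edgeR and 0.0918 by DESeq2. hoxd10a had 0, 0.769 and 95.03 in cardiac crest, against 1616, 1868 and 1403 in trunk crest (log2 fold change -8.19 ± 1.46, adjusted p = 0.00459). hoxd12a had 0, 2.31 and 34.6 in cardiac crest, against 202, 299 and 362 in trunk crest (log2 fold change -5.84 ± 1.16, adjusted p = 0.00756). In the 3 hoxd genes almost all cardiac crest reads came from replicate 3, the library that also held muscle transcripts, and its part in them was not tested. Replicate 3 was highest among mCherry-negative libraries too. Their values in replicates 1, 2 and 3 were 1.71, 0.33 and 24 CPM for hoxd9a. For hoxd10a they were 0.056, 0 and 21.65 CPM, and for hoxd12a 0, 0 and 6.07 CPM. hoxb10a was likewise highest in replicate 3, at 0.28, 0.165 and 18.1 CPM in mCherry-negative cells, while hoxb9a was lowest there, at 103, 90.4 and 39.1 CPM. All 8 genes of groups 9 to 13 had a mean CPM in mCherry-negative cells above that in cardiac crest. So had 51.8% of all genes, a comparison with no test. hoxd11a had 0.7, 0.769 and 92.2 in cardiac crest, against 142, 199 and 56.2 in trunk crest, again with replicate 3 highest in cardiac crest, and did not pass (log2 fold change -4.17 ± 1.45, adjusted p = 0.0689).

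Genes nearer the front of the clusters were called in both directions or did not pass. Of 5 genes of groups 5 to 8, hoxb7a was lower at 1261, 978 and 1946 in cardiac crest, against 8437, 10389 and 9019.6 in trunk crest (log2 fold change -2.79 ± 0.27, adjusted p = 0.000246) and 4 did not pass, among them hoxb8a at 5182, 3016 and 6409 in cardiac crest, against 8459, 6529.9 and 5847 in trunk crest (log2 fold change -0.56 ± 0.3, adjusted p = 0.208). The median of the 5 was -0.56. Leaving out cardiac crest replicate 3, 2 of the 5 were lower. Of 4 genes of groups 1 to 4, 1 was higher, 2 lower and 1 not past the test, with a median of -1.56. hoxd3a had 1306, 958 and 1184 in cardiac crest, against 2453, 2833 and 2806 in trunk crest (log2 fold change -1.24 ± 0.22, adjusted p = 0.00449, with 25.1% of its length shared with another gene). hoxc3a had 115, 364 and 580.3 in cardiac crest, against 2299, 1804 and 1910.2 in trunk crest (log2 fold change -2.78 ± 0.52, adjusted p = 0.00614, 75.4% shared). The anterior gene hoxb1b was higher at 1885, 1308 and 4529 in cardiac crest, against 673, 874 and 710.2 in trunk crest (log2 fold change 1.58 ± 0.42, adjusted p = 0.0267), but its adjusted p was between 0.051 and 0.0694 without cardiac crest replicate 1, trunk crest replicate 1, trunk crest replicate 2 or trunk crest replicate 3. hoxb3a, 92.5% of whose length is shared with another gene, did not pass (log2 fold change -1.89 ± 0.65, adjusted p = 0.067).

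**Figure D3:**
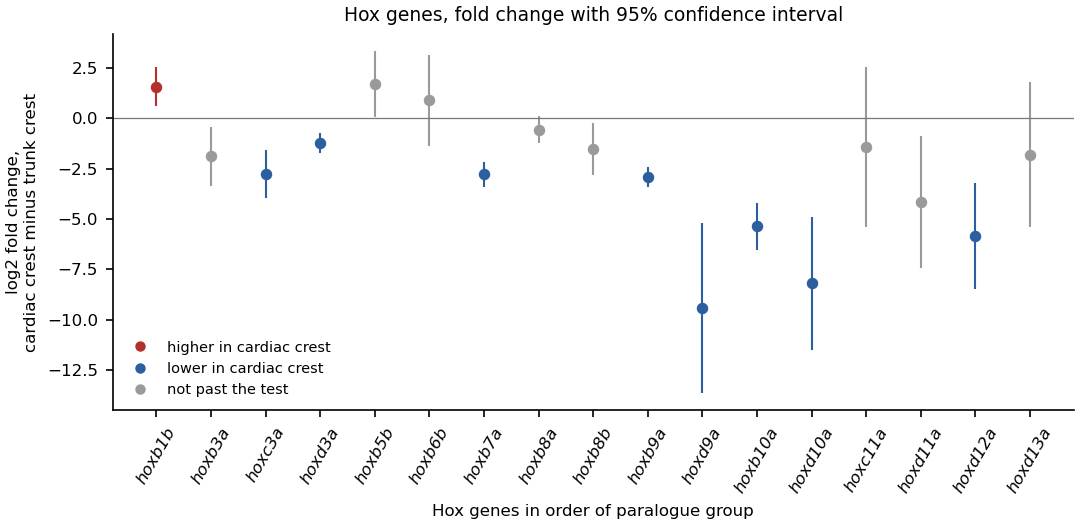
Log2 fold change, cardiac crest minus trunk crest (y axis, log2 of scaled reads + 1), of the 17 Hox genes in the table in order of paralogue group (x axis), with limma's 95% confidence interval as bars. Red is higher, blue lower and grey not past the test; the called genes of groups 9 to 13 lie between -2.92 for hoxb9a and -9.42 for hoxd9a.

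Melanophore genes had the lowest median fold change of the 32 lists. All 21 melanophore genes in the table (24 listed) were lower, with a median of -5.06. dct (chromosome 9, 53788137 to 53813085, GRCz10), the dopachrome tautomerase gene of melanin synthesis, had 2.8, 8.46 and 7.2 scaled reads in cardiac crest, against 38142, 45388 and 28965 in trunk crest (log2 fold change -12.44 ± 0.4, adjusted p = 2.62e-06). Its relative tyrp1b had 4.2, 102 and 0 in cardiac crest, against 61776, 91902 and 62316 in trunk crest (log2 fold change -13.09 ± 1.56, adjusted p = 0.00211), with nearly all cardiac crest reads in replicate 2. The melanocortin receptor gene mc1r had no read in cardiac crest and 575, 666 and 585 in trunk crest, so that its level was at least 834-fold lower in cardiac crest against the floor (log2 fold change -9.25 ± 0.56, adjusted p = 2.41e-05). All 3 genes were low or without a read in most cardiac crest libraries. The melanosome transporter gene slc45a2 had 370.5, 217 and 70.6 in cardiac crest, against 11661, 16037 and 12278 in trunk crest (log2 fold change -6.2 ± 0.52, adjusted p = 0.000113). The pigment fibril gene pmelb had 30.8, 5.39 and 0.72 in cardiac crest, against 603, 466 and 761 in trunk crest (log2 fold change -6.41 ± 0.95, adjusted p = 0.00187).

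Regulators of melanophores were lower as well. mitfa, the master regulator of melanophores, had 870.5, 331 and 243 in cardiac crest, against 8123, 4424 and 4084 in trunk crest (log2 fold change -3.67 ± 0.47, adjusted p = 0.000909). The receptor tyrosine kinase gene kita, needed for melanophore migration and survival, had 16.1, 10.77 and 15.8 in cardiac crest, against 446, 464 and 385 in trunk crest (log2 fold change -4.84 ± 0.45, adjusted p = 0.0002). The fold nearest 0 was that of hps4, a lysosome-related organelle gene (-2.1 ± 0.27, adjusted p = 0.000959). The ocular albinism receptor gene gpr143 had 3349.6, 1935 and 811 in cardiac crest, against 13919, 4929 and 7117 in trunk crest (log2 fold change -2.18 ± 0.53, adjusted p = 0.0185), with an adjusted p between 0.0557 and 0.0647 without cardiac crest replicate 2 or trunk crest replicate 1.

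Of 19 pteridine and xanthophore genes in the table (20 listed), 15 were lower, none was higher and 4 did not pass, with a median of -3.70. gch2 (chromosome 12, 24994391 to 25001210, GRCz10), the GTP cyclohydrolase that opens pteridine synthesis, had 326, 425 and 1272 scaled reads in cardiac crest, against 1603996, 1615646 and 1489554 in trunk crest (log2 fold change -11.45 ± 0.43, adjusted p = 3.75e-06), and it took 4.11% to 4.54% of the scaled reads of the trunk crest libraries. The gap junction gene cx30.3 had 0, 18.5 and 0 in cardiac crest, against 16212, 15912 and 13527 in trunk crest (log2 fold change -12.46 ± 1.02, adjusted p = 0.0001). A sepiapterin reductase gene, sprb, had 1.4, 1.54 and 0 in cardiac crest, against 3475, 1077 and 1164 in trunk crest (log2 fold change -9.81 ± 0.67, adjusted p = 4.18e-05), its trunk crest replicate 1 standing above the other trunk libraries. The aldehyde oxidase gene aox5, an established xanthophore marker, had 81.9, 227 and 22.3 in cardiac crest, against 15174, 15442 and 13511 in trunk crest (log2 fold change -7.59 ± 0.68, adjusted p = 0.000152, 25.1% of its length shared). The paired-box factor genes that act in xanthophore specification were lower too, pax7a falling to 214, 515 and 187 in cardiac crest, against 3804, 3580.4 and 3319 in trunk crest (log2 fold change -3.7 ± 0.38, adjusted p = 0.000304). pax7b fell to 986, 2564 and 1186 in cardiac crest, against 15618, 18385 and 20589 in trunk crest (log2 fold change -3.65 ± 0.34, adjusted p = 0.0002). csf1ra, the receptor gene xanthophores need, had 11.9, 13.8 and 23.04 in cardiac crest, against 310.01, 151 and 141 in trunk crest (log2 fold change -3.5 ± 0.56, adjusted p = 0.0028). The E3 ligase gene mycbp2 had the highest level of those that did not pass (0.35 ± 0.29, adjusted p = 0.422).

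Iridophore and purine genes followed the same direction with medians nearer 0. Of 14 iridophore genes in the table (16 listed), 9 were lower and 5 did not pass, with a median of -2.43. Without cardiac crest replicate 3 or trunk crest replicate 3, 1 was higher. pnp4a, a purine nucleoside phosphorylase gene and iridophore marker, had 2.8, 22.3 and 20.9 in cardiac crest, against 18898, 27589.7 and 18755 in trunk crest (log2 fold change -10.74 ± 0.64, adjusted p = 2.36e-05). The endothelin receptor gene ednrba of pigment cells had 301, 245 and 155 in cardiac crest, against 1675, 2242 and 2569 in trunk crest (log2 fold change -3.24 ± 0.33, adjusted p = 0.000291). Of 19 genes of de novo purine synthesis in the table (20 listed), 12 were lower, 2 higher and 5 did not pass, with a median of -1.39. The number higher was 1 without cardiac crest replicate 1 or 2 and 0 without trunk crest replicate 2 or 3. impdh1b, which commits inosine monophosphate to guanine nucleotides, had 3511, 4225 and 4689.6 in cardiac crest, against 53469, 70833 and 66862 in trunk crest (log2 fold change -3.94 ± 0.2, adjusted p = 1.45e-05). gmps, the next enzyme, had 5411, 5083 and 5707 in cardiac crest, against 32233, 27688 and 30196 in trunk crest (log2 fold change -2.47 ± 0.17, adjusted p = 4.70e-05). The bifunctional enzyme gene atic had 3761, 2822 and 2512 in cardiac crest, against 14571, 11035 and 10887 in trunk crest (log2 fold change -2.01 ± 0.23, adjusted p = 0.00049). No cardiac crest library of these 3 genes reached the lowest trunk crest library. The impdh1b paralogue impdh2 (0.04 ± 0.23, adjusted p = 0.928) and the list member prps1b (-0.42 ± 0.24, 0.234) did not pass.

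Subunits of the vacuolar ATPase, the proton pump of lysosomes and pigment organelles, also fell. Of 20 in the table, 15 were lower, none was higher and 5 did not pass, with a median of -2.52. Without trunk crest replicate 3, or with upper-quartile factors, 1 was higher. The largest fall of the list was in atp6v1c1b, at 1029, 692 and 808 in cardiac crest, against 13131, 15465 and 14547 in trunk crest (log2 fold change -4.11 ± 0.22, adjusted p = 1.62e-05). The falls nearest 0 among those past the test were in atp6v0b (-1.58 ± 0.19) and atp6v0a1a (-1.88 ± 0.25). The atp6v1c1b duplicate atp6v1c1a had 1736, 1753 and 1659 in cardiac crest, against 9597, 10292 and 9709.6 in trunk crest (log2 fold change -2.52 ± 0.18, adjusted p = 5.01e-05), and in both the groups were separate. For scale, of 79 cytoplasmic ribosomal protein genes 1, rpl9, was higher and 78 did not pass, with a median of -0.09. Without cardiac crest replicate 3, 5 of the 79 were higher, and without cardiac crest replicate 1 or trunk crest replicate 1 none was.

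**Figure D4:**
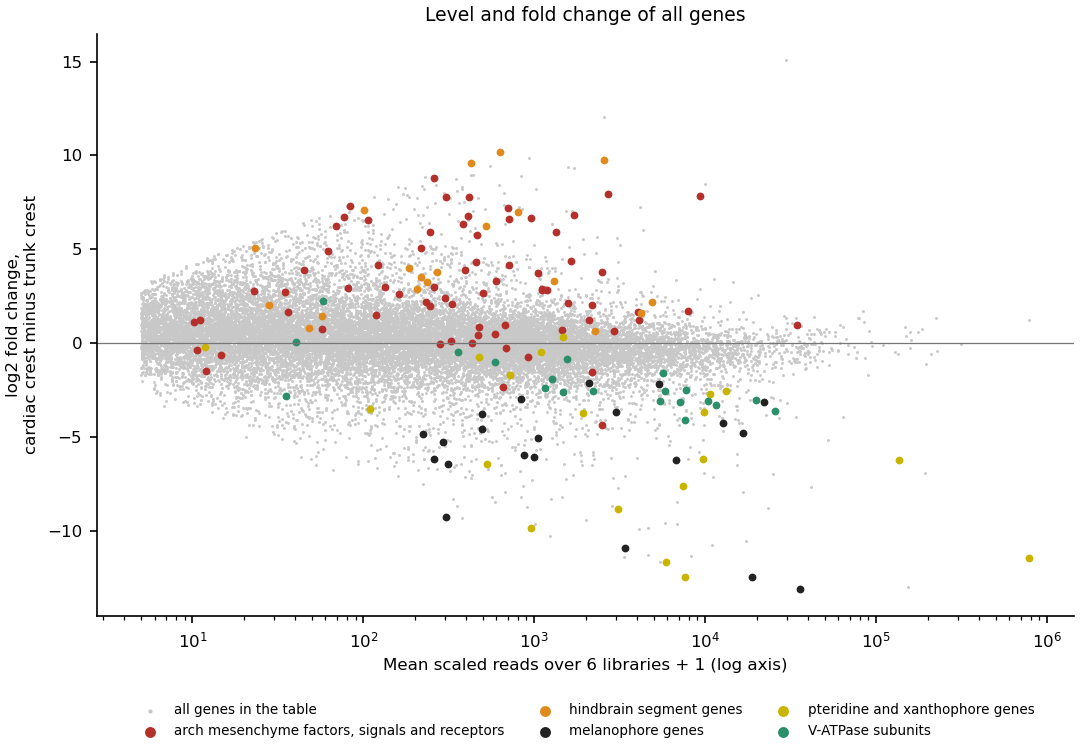
Log2 fold change, cardiac crest minus trunk crest (y axis), against the mean scaled reads of the 6 libraries + 1 (x axis, log scale) for all 20847 genes (grey) with members of 6 lists coloured. Arch and hindbrain genes lie mostly above 0, and melanophore, pteridine and V-ATPase genes mostly below, with gch2 at the far right at a log2 fold change of -11.45.

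Neuron and glia genes moved in both directions. Of 22 sensory neuron genes in the table (24 listed), 3 were higher, 3 lower and 16 did not pass, shares near the 10.7% higher and 12.5% lower of all genes, with a median of -0.74. Without trunk crest replicate 3, 5 were lower. isl2a, a LIM-homeobox factor of Rohon-Beard and sensory neurons in zebrafish, had 120.5, 187 and 58.3 in cardiac crest, against 2344, 436 and 558 in trunk crest (log2 fold change -2.91 ± 0.68, adjusted p = 0.0155). prdm12b, a factor of pain-sensing neurons, had 1276, 604 and 1281 in cardiac crest, against 8695, 3066 and 3132 in trunk crest (log2 fold change -2.13 ± 0.45, adjusted p = 0.0107). The microtubule regulator gene stmn2a had 797, 987 and 536 in cardiac crest, against 7756, 2376 and 2112 in trunk crest (log2 fold change -2.17 ± 0.48, adjusted p = 0.0127). Trunk crest replicate 1 was the highest library for all 3 genes, and also for muscle genes. neurod1, a proneural factor of cranial ganglia, had 2181, 859 and 2520.5 in cardiac crest, against 0, 1.33 and 1.44 in trunk crest (log2 fold change 9.88 ± 0.64, adjusted p = 3.54e-05). The neurotrophin receptor gene ntrk3a had 380.3, 548 and 1120.2 in cardiac crest, against 108, 145 and 82.1 in trunk crest (log2 fold change 2.49 ± 0.47, adjusted p = 0.00598). The sensory and heart factor isl1 did not pass (log2 fold change -1.14 ± 0.76, adjusted p = 0.312).

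Of 15 autonomic and enteric neuron genes in the table (18 listed), 5 were higher, none was lower and 10 did not pass, with a median of 1.24. The number higher was 3 without cardiac crest replicate 1, 3 without replicate 2, 3 without replicate 3, 3 without trunk crest replicate 1 and 2 without trunk crest replicate 2. Higher members were hand2, given above with the arch factors, gata3, chga, gata2a and gfra1a. chga took 0.0003%, 0.000479% and 0.00289% of scaled reads in cardiac crest, most of it in replicate 3, against 3.35e-05%, 5.78e-05% and 1.19e-05% in trunk crest. For gfra1a the shares were 0.00415%, 0.00346% and 0.00181% in cardiac crest, against 0.00104%, 0.000918% and 0.00104% in trunk crest. The autonomic factor phox2bb had 789, 13.8 and 2318 in cardiac crest, against 134, 148 and 163 in trunk crest, cardiac crest replicates 2 and 3 lying furthest apart, and did not pass (log2 fold change 1.02 ± 1.6, adjusted p = 0.69). Of 18 glial and Schwann lineage genes (21 listed), 6 were higher, 2 lower and 10 not past the test, with a median of 0.76. Of all genes, 10.7% were higher and 12.5% lower. The number of glial genes lower was 1 without cardiac crest replicate 1, trunk crest replicate 1 or trunk crest replicate 2. The myelin gene mpz had 188, 148 and 745 in cardiac crest, against 8.28, 1.33 and 8.64 in trunk crest (log2 fold change 5.54 ± 0.84, adjusted p = 0.00205). The myelin gene plp1a had 1819, 4022 and 3919 in cardiac crest, against 41.4, 1.33 and 127 in trunk crest (log2 fold change 7.04 ± 1.24, adjusted p = 0.00455). The glial filament gene gfap had 602, 1323 and 1997 in cardiac crest, against 43.8, 6.67 and 0 in trunk crest (log2 fold change 7.38 ± 1.2, adjusted p = 0.00291). All 3 were higher in cardiac crest. gfap and plp1a are also made in neural tube cells. ngfrb, a low-affinity neurotrophin receptor gene, was lower at 392, 240.04 and 333 in cardiac crest, against 1022, 859 and 867 in trunk crest (log2 fold change -1.53 ± 0.3, adjusted p = 0.00668).

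Cadherin genes moved in both directions. Of 15 cadherin genes in the table (16 listed), 6 were higher, 2 lower and 7 did not pass, with a median of 1.6. Of all genes, 10.7% were higher and 12.5% lower. cdh2, the neural cadherin gene, had 4053, 4942 and 5773 in cardiac crest, against 775, 320.2 and 393 in trunk crest (log2 fold change 3.4 ± 0.34, adjusted p = 0.000282). cdh6, a cadherin gene of premigratory crest, had 7012, 7247 and 7307 in cardiac crest, against 1109, 928 and 1169.8 in trunk crest (log2 fold change 2.75 ± 0.2, adjusted p = 5.08e-05). cdh11, a mesenchymal cadherin gene, had 1172, 1356 and 1173 in cardiac crest, against 52.1, 4.0020 and 121 in trunk crest (log2 fold change 5.27 ± 0.99, adjusted p = 0.006). All 3 were higher in every cardiac crest library than in any trunk crest library. The epithelial cadherin gene cdh1 had 788, 1494 and 1603 in cardiac crest, against 5626, 6494 and 5257 in trunk crest (log2 fold change -2.22 ± 0.29, adjusted p = 0.00104). The protocadherin gene pcdh10a had 338, 250.04 and 362 in cardiac crest, against 2492, 2198 and 2027 in trunk crest (log2 fold change -2.83 ± 0.26, adjusted p = 0.000172). These were the cadherin genes that fell. Mean CPM was above that of cardiac crest in mCherry-negative cells for 10 of the 15, and for 51.8% of all genes, with no test.

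Of 46 matrix and integrin genes in the table (51 listed), 13 were higher, 6 lower and 27 not past the test, with a median of 0.66. Of all genes, 10.7% were higher and 12.5% lower. The number of matrix and integrin genes lower was 3 without cardiac crest replicate 1, trunk crest replicate 1 or trunk crest replicate 2. Mean CPM was above that of cardiac crest in mCherry-negative cells for 32 of the 46, and for 51.8% of all genes, with no test. The proteoglycan gene vcana had 1347, 826 and 1546 in cardiac crest, against 3.55, 8.0040 and 0 in trunk crest (log2 fold change 8.44 ± 0.8, adjusted p = 0.000212). The collagen gene col5a1 had 5545, 4769 and 6430.4 in cardiac crest, against 593, 518 and 386 in trunk crest (log2 fold change 3.49 ± 0.25, adjusted p = 4.92e-05). The fibronectin gene fn1a, whose product crest cells migrate on, had 1256, 1956 and 1225 in cardiac crest, against 62.7, 72.04 and 167 in trunk crest (log2 fold change 3.97 ± 0.44, adjusted p = 0.000418). The fibronectin-binding integrin gene itga4 had 46.9, 77.7 and 6.48 in cardiac crest, against 1406, 939 and 1114 in trunk crest (log2 fold change -5.22 ± 0.79, adjusted p = 0.00201), lower in every cardiac crest library than in any trunk crest library. Another fibronectin receptor gene, itga5, did not pass (log2 fold change 0.85 ± 0.38, adjusted p = 0.14).

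Of 25 retinoic acid genes in the table (26 listed), 11 were higher, 1 was lower and 13 did not pass, with a median of 0.85. Shares over all genes were 10.7% higher and 12.5% lower. In mCherry-negative cells of the cardiac level and age, 19 of the 25 had a mean CPM above that of cardiac crest. So had 51.8% of all genes, a comparison with no test. Retinoic acid patterns the caudal hindbrain. The receptor gene rxraa had 6099, 7033 and 3404 in cardiac crest, against 561, 796 and 572 in trunk crest (log2 fold change 3.05 ± 0.31, adjusted p = 0.000296). cyp26b1, which degrades retinoic acid, had 84.7, 201 and 778 in cardiac crest, against 14.2, 18.7 and 10.1 in trunk crest (log2 fold change 4.00 ± 0.8, adjusted p = 0.00782), with replicate 3 highest among cardiac crest libraries. The duplicated binding protein genes lay on opposite sides, crabp2a being higher at 3638, 3466 and 8779.6 in cardiac crest, against 1091, 734 and 444 in trunk crest (log2 fold change 2.76 ± 0.43, adjusted p = 0.00248). crabp2b was lower at 167, 139 and 174 in cardiac crest, against 4120.1, 5068 and 4303 in trunk crest (log2 fold change -4.8 ± 0.24, adjusted p = 1.45e-05). Without cardiac crest replicate 3 the number lower was 4.

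Most Wnt genes were higher in cardiac crest. Of 23 in the table (27 listed), 15 were higher, 1 was lower and 7 did not pass, with a median of 1.84. Leaving out cardiac crest replicate 3, 2 were lower. The dorsal neural tube ligand gene wnt1 had 149, 212 and 74.2 in cardiac crest, against 1.18, 1.33 and 0 in trunk crest (log2 fold change 6.28 ± 0.72, adjusted p = 0.000525). wnt3a, a ligand gene of the same region, had 200.3, 342 and 115 in cardiac crest, against 27.2, 29.3 and 25.9 in trunk crest (log2 fold change 2.81 ± 0.54, adjusted p = 0.00644). wnt8b (log2 fold change 5.94 ± 0.76, adjusted p = 0.000895) and wnt10b (6.09 ± 0.76, 0.000786) were higher too. wnt11, a ligand of the noncanonical pathway, was lower at 334, 420.1 and 692 in cardiac crest, against 2805, 1868 and 1956 in trunk crest (log2 fold change -2.24 ± 0.33, adjusted p = 0.00172). The pathway effector gene ctnnb1 did not pass (log2 fold change 0.07 ± 0.46, adjusted p = 0.928).

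Of 21 Notch genes (22 listed), 9 were higher, none was lower and 12 did not pass, with a median of 1.06. The number higher was 5 without cardiac crest replicate 2. The receptor gene notch2 had 1837, 2531 and 1446 in cardiac crest, against 176, 467 and 216 in trunk crest (log2 fold change 2.85 ± 0.4, adjusted p = 0.00152), and the receptor gene notch3 had 543, 771 and 432 in cardiac crest, against 24.8, 96.05 and 105 in trunk crest (log2 fold change 3.14 ± 0.58, adjusted p = 0.00576). The list member her9, abundant in both groups, did not pass (log2 fold change -0.57 ± 0.39, adjusted p = 0.331). Of 13 FGF targets (14 listed), 5 were higher, 1 was lower and 7 did not pass, with a median of 0.62. Shares over all genes were 10.7% higher and 12.5% lower. The number of FGF targets lower became 2 when cardiac crest replicate 1 was left out, and 0 without replicate 2. The phosphatase gene dusp6, a feedback inhibitor, had 5387, 5660.2 and 5173 in cardiac crest, against 2112, 2532 and 1206 in trunk crest (log2 fold change 1.54 ± 0.28, adjusted p = 0.00555). The ETS factor gene etv5b had 6826, 5252 and 4049.6 in cardiac crest, against 2482, 1809 and 2039.9 in trunk crest (log2 fold change 1.33 ± 0.25, adjusted p = 0.00598). The feedback gene spry4 did not pass (log2 fold change -0.15 ± 0.5, adjusted p = 0.856).

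Cell cycle genes were higher in part and by small folds. Of 33 in the table (37 listed), 13 were higher, none was lower and 20 did not pass, with a median of 0.77. The number higher was 7 without cardiac crest replicate 1 or trunk crest replicate 2, and 8 without trunk crest replicate 3. Under upper-quartile factors it was 18. mki67, the proliferation marker gene, had 10156, 8708 and 7808 in cardiac crest, against 2538, 2661 and 3018 in trunk crest (log2 fold change 1.69 ± 0.2, adjusted p = 0.000549). top2a, a topoisomerase gene of dividing cells, had 2908, 3013 and 2246 in cardiac crest, against 916, 603 and 710.2 in trunk crest (log2 fold change 1.88 ± 0.25, adjusted p = 0.00111). The cyclin gene ccnd1 had 14179.8, 15869.6 and 12876 in cardiac crest, against 5128, 6463 and 4751 in trunk crest (log2 fold change 1.4 ± 0.2, adjusted p = 0.00156). The replication clamp gene pcna did not pass (log2 fold change 0.56 ± 0.2, adjusted p = 0.0816).

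Dissociation and stress can raise early response genes, and the list joins these with heat-shock and growth arrest genes. Of 30 in the table (36 listed), 9 were higher, 3 lower and 18 not past the test, with a median of 0.77. Of all genes, 10.7% were higher and 12.5% lower. Without cardiac crest replicate 3 the numbers of the list were 14 higher and 5 lower. ier2b, an immediate early gene, had 29884, 36587 and 12553 in cardiac crest, against 2717, 3076 and 1894 in trunk crest (log2 fold change 3.25 ± 0.39, adjusted p = 0.000615). fosb, another, had 200.3, 335 and 183 in cardiac crest, against 5.92, 17.3 and 20.2 in trunk crest (log2 fold change 4.06 ± 0.61, adjusted p = 0.00202). The early response factor egr1, given above, was higher too. The heat-shock gene hsp70l had 3464, 2038 and 3231 in cardiac crest, against 125572, 75900.4 and 101758 in trunk crest (log2 fold change -5.12 ± 0.27, adjusted p = 1.62e-05). The growth arrest gene gadd45aa had 181, 334 and 207 in cardiac crest, against 4178, 5802 and 6299.7 in trunk crest (log2 fold change -4.52 ± 0.3, adjusted p = 3.94e-05). The most abundant gene that did not pass was junbb, at 179745, 89111 and 69505 in cardiac crest, against 71389, 25585 and 36826 in trunk crest (log2 fold change 1.35 ± 0.43, adjusted p = 0.0517). It passed by DESeq2 (adjusted p = 0.0191). The part of cell handling in these values was not tested.

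Markers of other cell types were present in both groups, and several lists moved with the comparison. Of 30 neural tube progenitor genes in the table (37 listed), 20 were higher, none was lower and 10 did not pass, with a median of 4.59. Summed scaled reads of the list were 153089, 130623 and 83491 in cardiac crest, against 117285, 155151 and 106290.00 in trunk crest, so the sums overlap. A large part of the sums was her9, which did not pass, though less so in cardiac crest replicate 3. In cardiac crest her9 took 0.283%, 0.23% and 0.092% of scaled reads, where the whole list took 0.49%, 0.499% and 0.289%. In trunk crest her9 took 0.204%, 0.256% and 0.187%, and the list 0.332%, 0.42% and 0.294%. sox19a, a SoxB1 factor of neural progenitors, had 2412, 3267 and 9619 in cardiac crest and 0 in all trunk crest libraries, and 77.1, 125 and 331 CPM in cardiac crest and 691, 638 and 204 CPM in mCherry-negative cells at the same level and age. The progenitor factor nkx6.1 had 254, 53.1 and 796 in cardiac crest, against 0 in all trunk crest libraries (log2 fold change 7.8 ± 0.97, adjusted p = 0.000767). The defining marker sox2 was not analysed here. Of the 30 progenitor genes, 23 had a mean CPM in cardiac crest below that in mCherry-negative cells, a comparison with no test. The Notch list shares dla, dlb, dld, her4.1, her9 and lfng with this list, and the hindbrain list irx1b and irx7. The part of neural tube cells in the hindbrain, Wnt and Notch lists was not tested.

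Ear and placode genes also moved with the cardiac group, though dlx3b, dlx4b, pax2a and gata3 are also on the arch, neural tube or autonomic lists. Of 17 in the table (27 listed), 11 were higher, none was lower and 6 did not pass, with a median of 4.35. The list summed to 11663, 12301 and 10157 in cardiac crest, against 2151, 1197 and 1920.3 in trunk crest. otomp, an otolith matrix gene, had 335, 628 and 593 in cardiac crest, against 11.8, 14.7 and 14.4 in trunk crest (log2 fold change 5.1 ± 0.47, adjusted p = 0.00019). atoh1b, a hair cell factor, had 826, 616 and 326 in cardiac crest, against 0, 9.34 and 0 in trunk crest (log2 fold change 7.98 ± 0.96, adjusted p = 0.000636). The dissected cardiac tissue spans the level of the ear, and sox10 is known to be expressed in the otic epithelium. How much otic RNA the cardiac libraries held was not tested.

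Muscle genes varied widely among the cardiac crest libraries. Of 23 muscle and somite genes in the table (29 listed), 3 were higher, 5 lower and 15 not past the test, with a median of -4.27. Of all genes, 10.7% were higher and 12.5% lower. The sums of the muscle list were 6807, 5235 and 352967 in cardiac crest, against 1002699.9, 270464 and 381726 in trunk crest. Without cardiac crest replicate 3, 17 members were lower. Members higher in cardiac crest included meox1, given above with the arch factors, and ripply1. The latter took 0.000652%, 0.0015% and 0.00148% of scaled reads in cardiac crest, against 0%, 0.000163% and 8.36e-05% in trunk crest. The skeletal and heart actin gene actc1b had 142, 361 and 231005 in cardiac crest, against 550666, 155661 and 226034 in trunk crest (log2 fold change -6.88 ± 2.93, adjusted p = 0.158), cardiac crest replicate 3 lying among the trunk crest libraries. The fast troponin gene tnni2a.4 had 2.8, 1.54 and 1.44 in cardiac crest, against 19279, 3443 and 5107 in trunk crest (log2 fold change -11.25 ± 0.64, adjusted p = 1.87e-05). The fast troponin gene tnnt3a had 25.9, 48.5 and 26.6 in cardiac crest, against 10507, 2513 and 4253 in trunk crest (log2 fold change -7.18 ± 0.53, adjusted p = 5.91e-05). Both stayed low in all cardiac crest libraries, replicate 3 included.

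**Figure D5:**
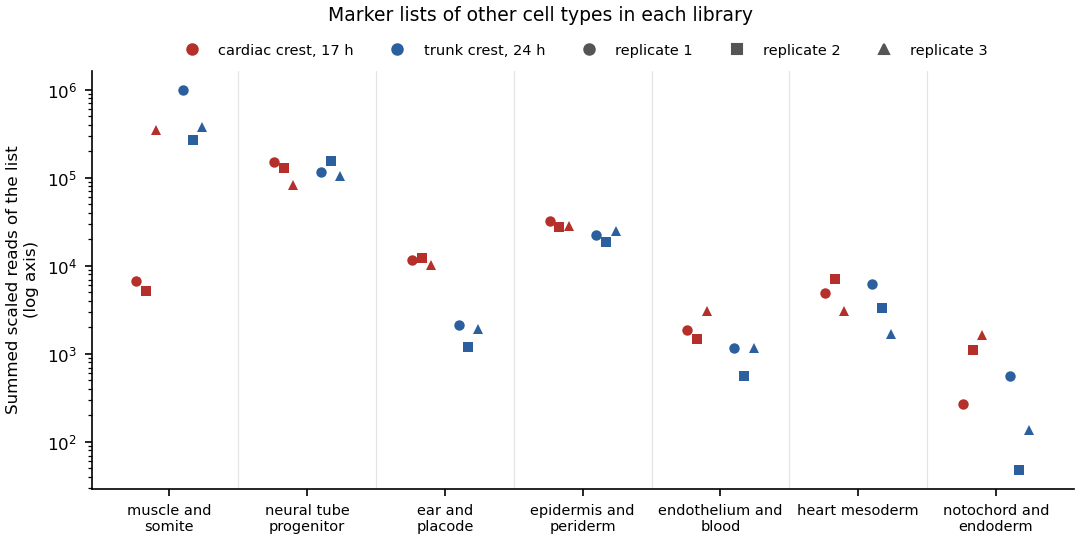
Summed scaled reads (y axis, log scale) of 7 marker lists of other cell types (x axis) in each cardiac crest library (red, left) and trunk crest library (blue, right), with a marker shape per replicate. Cardiac crest replicate 3 lies among the trunk crest libraries for muscle, and every cardiac crest ear and placode sum lies above every trunk crest one.

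Skin, vessel, heart and axial lists had at most 5 calls each. The share of members called was 28.6% for skin, 20% for endothelium and blood, 31.25% for heart mesoderm and 33.3% for notochord and endoderm. Outside the skin list all of these calls were higher, where 10.7% of all genes were higher and 12.5% lower. Of 14 epidermis and periderm genes (22 listed), 2 were higher, 2 lower and 10 not past the test, both shares near those of all genes. The list median was 1.56, with sums of 32267, 27367 and 28274 in cardiac crest, against 22663, 18825 and 24902 in trunk crest. The number higher was 6 without trunk crest replicate 3, and the number lower was 1 without cardiac crest replicate 1 or 2. cldni, a claudin gene of surface epithelium, had 2607, 2754 and 4038 in cardiac crest, against 2.37, 10.7 and 1.44 in trunk crest (log2 fold change 9.39 ± 0.62, adjusted p = 3.85e-05). tp63, the basal epidermis factor, had 1054, 712 and 1351 in cardiac crest, against 104, 184 and 258 in trunk crest (log2 fold change 2.55 ± 0.42, adjusted p = 0.00297). The lower genes were cdh1, given above, and anxa1a. The latter took 0.000309%, 0.000338% and 0.000991% of scaled reads in cardiac crest, against 0.00169%, 0.00125% and 0.00196% in trunk crest. All 14 members had a mean CPM in mCherry-negative cells above that in cardiac crest, a comparison with no test. The same held for 51.8% of all genes in the table. Of 20 endothelium and blood genes (26 listed), 4 were higher and 16 did not pass, with a median of 1.54. The blood genes cahz and spi1b were among the higher ones. cahz took 0.000835%, 0.00134% and 0.00244% of scaled reads in cardiac crest, against 2.01e-05%, 3.61e-06% and 3.98e-06% in trunk crest. For spi1b the shares were 6.72e-05%, 0.000188% and 0.000881% in cardiac crest, replicate 3 being highest, against 0%, 3.61e-06% and 3.98e-06% in trunk crest. The defining endothelial gene cdh5 (47.2% of its length shared) had 16.1, 13.1 and 2.88 in cardiac crest, against 7.1, 8.0040 and 8.64 in trunk crest (log2 fold change 0.14 ± 0.81, adjusted p = 0.922). Of 16 heart mesoderm genes (20 listed), 5 were higher and 11 did not pass, with a median of 2.5, and 1 was lower without trunk crest replicate 3. The higher members included hand2 and bmp4, which are also on the arch lists, so the counts are not independent. Another, nkx2.7, took 3.58e-05%, 0.00111% and 0.000157% of scaled reads in cardiac crest, most of it in replicate 2, against 0%, 0% and 3.98e-06% in trunk crest. aplnra, an apelin receptor gene of early heart and vessel precursors, had 1559.6, 1389 and 367 in cardiac crest, against 0, 1.33 and 0 in trunk crest (log2 fold change 9.45 ± 0.74, adjusted p = 8.14e-05). Among heart muscle genes myl7, the gene whose promoter drives the nuclear GFP of the cardiac line, had 43.4, 1.54 and 10.799 in cardiac crest, against 1.18, 0 and 1.44 in trunk crest (log2 fold change 2.65 ± 1.17, adjusted p = 0.137). Of 9 notochord and endoderm genes (13 listed), 3 were higher, among them the forkhead gene foxa2 at 74.9, 879 and 626 in cardiac crest, against 0, 0 and 0 in trunk crest (log2 fold change 8.44 ± 0.95, adjusted p = 0.000463), and 6 did not pass, with a median of 3.27.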

How the data were processed

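Bowtie2, featureCounts (Subread), DESeq and the GRCz10 build are named in the submitters' processing notes, without versions or order. Libraries were made with SMART-Seq v4, which leaves no molecular identifiers, and sequenced single-end, per the labels' protocols, so floors and intervals cover counting error only. The deposited cardiac against trunk crest table holds a size-factor-scaled signal per gene and library. Its values are whole multiples of the smallest non-zero value of their library in 100% of cases (tolerance 0.02), which recovers the reads. The authors' raw read counts for cardiac crest and mCherry-negative cells were made with featureCounts 1.5.1 on Ensembl release 80 gene models, over whole gene bodies and without a strand option, per the file headers. The recovered reads equalled those counts for all 20847 genes in cardiac crest. Reads of overlapping or antisense genes cannot be assigned with certainty, and the share of a named gene's length inside another gene is given where it is 20% or more.

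The main test was limma 3.58.1 (R 4.3.3) on log2(scaled reads + 1) of the 6 libraries, with a trend and robust prior, no filter and Benjamini-Hochberg adjustment over 20847 genes at 0.05. The ± after a fold change is limma's standard error. This scale understates the change of low genes. A fold against a group with 0 reads is a bound that takes 3 reads for that group as a floor. Alternatives were pseudocounts of 0.5 and 10, a filter of 10 scaled reads in 3 libraries, TMM and upper-quartile factors, edgeR 4.0.16 (quasi-likelihood) and DESeq2 1.42.0 on recovered reads, a replicate block, and leaving out each library. limma was tested on simulated data. CPM values of mCherry-negative cells come from the count table, with no test.

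The table's lowest mean over the 6 libraries was 4.02 scaled reads, so a listed member at a lower level would not be in it. Its genes without a symbol numbered 1443, and a member among these would not be found. Why each member was not found is not known, and members not found were not analysed here. Of the 32 gene lists, the ribosomal protein and V-ATPase families were taken by symbol pattern. The remaining lists hold 743 places, 611 of them in the table. Some genes hold a place on more than 1 list, so list counts are not independent of each other. The members and lists were chosen with earlier results of these data known. Named genes were check genes and markers, up to 6 called members per list with the largest fold (mean of 100 or more, groups not overlapping) and its most abundant member that did not pass, and crest regulators with a 95% interval within -1 to 1. To these came, in each direction, the 10 genes of smallest p at a mean of 1000 or more and the 10 most abundant with an absolute log2 fold change of 3 or more. Other named members were chosen after their values were seen. Symbols came from the deposited table for 17643 genes and from a reference table for 1761, and 15 symbols turned into dates were ignored. The deposited table's own log2 fold changes, test statistic (a score), p-values and −log10 adjusted p-values, made by the authors, were not used. The labels' stage of 16 somites was followed, while the count table is named for another stage.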

Additional observations from a re-analysis of the deposited data

How the results depend on the processing

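Of the 206 genes named by the rule, 174 passed the test and 149 of these also passed in all 6 fits that left out 1 library. Other members, named after their values were seen, are not in these counts. A reversal of direction was counted only where the gene passed in the main fit or in the alternative. None was found under any of the 14 alternatives. Changes of sign in genes that passed in neither fit were not counted. Without 1 library the number of genes past the test was 3205 to 4591, with 1333 to 1869 higher and 1814 to 2722 lower in cardiac crest. It was 3205 without cardiac crest replicate 2, with 1344 higher, and 1333 were higher without cardiac crest replicate 1. Upper-quartile factors moved the median log2 fold change of all genes by 0.12 and gave 2669 higher and 2307 lower genes, against 2233 and 2596 with the authors' factors. Every setting with all libraries, upper-quartile factors included, kept both counts within 1.5 times those of the main fit. edgeR called 2126 higher and 2420 lower genes and DESeq2 2816 and 3058. Libraries of the same replicate number did not deviate together (correlations of 0.008, 0.023 and -0.013), so numbers do not pair them; blocking on that number, 1978 genes were higher and 2295 lower, 4052 of them also called without it. Under edgeR 6 of the 206 genes lost their call, and under upper-quartile factors 3 (meis1b, pcna and junbb) gained one. The 3 libraries a group and the lack of molecular identifiers limit small folds and low counts.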

Other observations

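Genes outside the lists, picked by smallest p or by abundance, included the following that were lower in cardiac crest. mocos, the molybdenum cofactor sulfurase gene whose product activates xanthine dehydrogenase and aldehyde oxidase, had 309.5, 520.1 and 247 in cardiac crest, against 31496, 30109.7 and 28754 in trunk crest (log2 fold change -6.46 ± 0.28, adjusted p = 9.43e-06). The seipin-like gene bscl2l had 5.6, 9.23 and 2.88 in cardiac crest, against 15143, 20908 and 13572 in trunk crest (log2 fold change -11.31 ± 0.42, adjusted p = 3.75e-06), and the adenylate cyclase gene adcy1b had 8.4, 9.23 and 9.36 in cardiac crest, against 2479, 3532 and 2642 in trunk crest (log2 fold change -8.16 ± 0.37, adjusted p = 1.13e-05). The cardiac crest libraries of the last 2 genes held fewer than 10 scaled reads each. The cation exchanger gene cax1, at 2012, 1669.5 and 1525 in cardiac crest, against 30576, 29073 and 27782 in trunk crest (log2 fold change -4.08 ± 0.19, adjusted p = 1.23e-05), pik3c3, encoding the class III phosphoinositide kinase of endosomes and autophagy, at 201, 225 and 189 in cardiac crest, against 7762, 6328 and 5265 in trunk crest (log2 fold change -4.95 ± 0.24, adjusted p = 1.45e-05), and the sugar transporter family gene slc2a11b, at 3767, 3391 and 2528 in cardiac crest, against 55611, 54502 and 42803 in trunk crest (log2 fold change -3.99 ± 0.22, adjusted p = 1.82e-05), were lower without overlap. The tetraspanin gene tspan36 had 11399, 8191 and 5107 in cardiac crest, against 94338, 140874 and 122998 in trunk crest (log2 fold change -3.91 ± 0.3, adjusted p = 6.94e-05). The peroxiredoxin gene prdx1 (-5.19 ± 0.23), the glutathione transferase gene gstp1 (-3.04 ± 0.28), the synaptogyrin gene syngr1a (-7.63 ± 0.39) and the heat-shock gene hsp90aa1.2 (-3.16 ± 0.27, 48.2% of its length shared) were lower too, with adjusted p from 1.13e-05 to 0.000181.

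Among genes higher in cardiac crest outside the lists, lratb.1, of the family of lecithin retinol acyltransferases, had 7632, 7550.5 and 9617 in cardiac crest, against 49.7, 86.7 and 34.6 in trunk crest (log2 fold change 7.25 ± 0.36, adjusted p = 1.45e-05). The basement membrane collagen gene col4a5 had 2262, 3297 and 3746 in cardiac crest, against 73.4, 105 and 83.6 in trunk crest (log2 fold change 5.12 ± 0.31, adjusted p = 2.49e-05), and the secreted collagen triple helix protein gene cthrc1a had 7194, 3569.8 and 6999.9 in cardiac crest, against 66.3, 84.04 and 269 in trunk crest (log2 fold change 5.61 ± 0.53, adjusted p = 0.000198). The chemokine gene cxcl14 had 6365, 5871 and 6018 in cardiac crest, against 123, 61.4 and 536 in trunk crest (log2 fold change 5.24 ± 0.65, adjusted p = 0.000783). The Hox cofactor gene meis2b had 5589.8, 5368 and 6796 in cardiac crest, against 717, 358 and 1036 in trunk crest (log2 fold change 3.19 ± 0.37, adjusted p = 0.000516), and the zinc finger gene zbtb16a had 9487, 9939 and 8803 in cardiac crest, against 821, 416 and 839.9 in trunk crest (log2 fold change 3.83 ± 0.29, adjusted p = 7.10e-05). Trunk crest libraries of these genes stayed below every cardiac crest library. Reads assigned to the growth hormone gene gh1 came to 78801, 71692 and 28125 in cardiac crest, against 0, 0 and 2.88 in trunk crest (log2 fold change 15.07 ± 0.62, adjusted p = 6.72e-06). The cardiac line carries transgenes that the trunk line lacks, and reads of the gene and of any transgene holding part of its sequence cannot be told apart in these files, so the values are assigned reads, not shown to be expression of the gene.

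Reads were absent from all trunk crest libraries and at 100 scaled reads or more in every cardiac crest library for 12 genes: sox19a, irx1b, irx7, olig4, foxf2a, sost, tpbga, pou3f3a, irx1a, ndrg1b, dlx1a and lbx1b. The reverse held for 1 gene, mc1r.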
